A study of Caenorhabditis elegans with 6 samples.

Results

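The genes described here encode the NEKL kinases of Caenorhabditis elegans, the ankyrin repeat proteins that bind them, and the endocytic proteins tied to them in molting. They are nekl-2, nekl-3, mlt-2, mlt-3, mlt-4, lrp-1, dab-1 and chc-1, taken by name, which makes 8 genes of 45343 features in the deposited table. Each was found through its sequence name, and all 8 passed the filter on low values. Whole third-stage larvae at mid-stage, synchronized by bleaching and grown on agar plates, gave the RNA. One group was the N2 Bristol strain (WT, 3 libraries) and the other carried the blmp-1 allele tm548 (3 libraries). The design text speaks of biological replicates without saying how cultures were separated, so p-values measure the spread between these samples, which may be technical. BLMP-1 is a zinc-finger protein of the Blimp-1 family that regulates transcription. The comparison asks how transcript levels of mid-third-stage larvae differ when blmp-1 carries this allele.

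NEKL-2 and NEKL-3 are NIMA-related protein kinases that act in the large epidermal syncytium of the worm, where loss of either blocks the shedding of the old cuticle. NEKL-2 works with the ankyrin repeat proteins MLT-2 and MLT-4, and NEKL-3 with MLT-3, and both complexes are needed for clathrin-mediated endocytosis at the apical surface. LRP-1, a megalin-like receptor thought to take up sterols there, DAB-1, its Disabled-type cargo adaptor, and CHC-1, the clathrin heavy chain, belong to that uptake route.

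Values are FPKM, in which fragment numbers are scaled to transcript length and to library size, so levels of different genes are set side by side per length. Steps among low values put the depth at 7370000 to 8240000 reads per library if whole exon lengths are counted, and at 9030000 to 9800000 reads if 200 nt less are. At the lower estimate the 8 genes rested on about 271 reads (mlt-4, lowest library) to 8092 reads (lrp-1, highest library). The blmp-1 transcript was at 64.9, 71.1 and 75.2 FPKM in WT and at 40.3, 36.9 and 38.0 FPKM in the mutant. It was lower in each mutant library, although what tm548 deletes is not stated in the labels. The 5 epidermis markers, dpy-7, lin-26, elt-1, elt-3 and nhr-25, were above 0 in every library. Their summed level was 344 to 379 FPKM in WT and 350 to 376 FPKM in the mutant. Limma called 0 of the 5, where 6.4% of all features were called. An unadjusted p under 0.05 was found for 0 of the 5, against 23% of all features. WT replicates 1 and 2 stood apart in transcripts of yolk genes and of an adult cuticle collagen gene. The 6 vitellogenin (yolk) genes summed to 386 and 532 FPKM there, to 124 FPKM in WT replicate 3, and to 156, 72.2 and 122 FPKM in mutant replicates 1, 2 and 3. The adult cuticle collagen gene col-19 was at 100.65 and 123 FPKM in WT replicates 1 and 2 and at 33.5 to 51.4 FPKM in the other libraries. The part of these transcripts in the results below was not tested, and the differences of called genes of the 8, and of others that moved by over 1.5 times, are also given without both libraries.

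Of the kinase genes, nekl-2 fell in the mutant and nekl-3 did not pass the test. The nekl-2 transcript (ZC581.1) was at 39.3, 38.2 and 37.4 FPKM in WT replicates 1, 2 and 3 and at 30.2, 29.2 and 30.6 FPKM in mutant replicates 1, 2 and 3. All mutant libraries lay below all WT libraries, with a gap wider than the range within either group. The gene rested on about 273 to 386 reads per library at the lower depth estimate. Whether counting error allows ranges this narrow was not tested. The means were 38.3 ± 0.955 and 30.0 ± 0.713 FPKM (SD, n = 3), a difference of -0.34 on the log2(FPKM + 1) scale (SE 0.0572, 1.27-fold lower, limma adjusted p = 0.0249, Benjamini-Hochberg over 17058 features). In whole larvae, fewer cells that make a transcript and less transcript per cell cannot be told apart. The nekl-3 transcript (F19H6.1) was at 55.4, 57.2 and 57.1 FPKM in WT and at 62.2, 60.6 and 62.5 FPKM in the mutant. Here every mutant library lay above every WT library, by a small margin. The log2 difference was 0.12 (SE 0.0430, 95% interval 0.02 to 0.23, limma adjusted p = 0.157), short of the threshold.

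The nekl-2 value moved little when single libraries were left out, from -0.36 to -0.32 log2 units, while its adjusted p moved across the threshold. Limma called it without mutant replicate 3 (adjusted p = 0.0366) and not without WT replicate 1, 2 or 3 (0.0552, 0.113 and 0.0586) or mutant replicate 1 or 2 (0.0978 and 0.0969). With WT replicates 1 and 2 both omitted, a setting chosen after seeing the data in which the lone WT library is assumed to vary like the mutant ones, the log2 difference was -0.31 (limma adjusted p = 0.213). The gene ZC581.9 on the opposite strand shares 84 of the 1192 exon bases of nekl-2 in the annotation used here. That gene averaged 17.3 ± 0.363 and 16.8 ± 0.623 FPKM in WT and mutant libraries (SD, n = 3).

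Among the ankyrin repeat genes, mlt-3, whose product partners NEKL-3, rose, while mlt-2 and mlt-4, whose products partner NEKL-2, did not pass. The mlt-3 transcript (Y39C12A.1) was at 51.7, 54.4 and 52.7 FPKM in WT replicates 1, 2 and 3 and at 71.7, 65.4 and 83.0 FPKM in mutant replicates 1, 2 and 3. The WT libraries were close together and the mutant libraries all lay above them but were spread out, mutant replicate 3 being the highest. The means were 52.9 ± 1.39 and 73.4 ± 8.94 FPKM (SD, n = 3), 1.37-fold higher in the mutant (0.46 log2 units, SE 0.0904; limma adjusted p = 0.0390). The coefficient of variation was 2.63% in WT and 12.2% in the mutant.

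The mlt-3 call held without mutant replicate 2 or 3 (limma adjusted p = 0.0460 and 0.0350). Leaving out WT replicate 1, 2 or 3 ended it (adjusted p = 0.0957, 0.126 and 0.0932), as did leaving out mutant replicate 1 (0.123), centring libraries on their medians (0.0650) or fitting no variance trend (0.0711). The log2 difference stayed between 0.37 and 0.54 with any single library left out, and was 0.46 with WT replicates 1 and 2 both omitted (limma adjusted p = 0.327). A gene on the opposite strand, F35G2.5, shares 25 of the 1297 exon bases of mlt-3 in the annotation used here. Its level went the other way, from 16.7 ± 3.21 FPKM down to 6.60 ± 2.08 FPKM (SD, 3 libraries per group; limma adjusted p = 0.0414). It was looked up for the overlap after the values of mlt-3 were seen.

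The mlt-2 transcript (C01H6.2) was at 23.2, 23.9 and 25.7 FPKM in WT and at 22.1, 22.7 and 21.8 FPKM in the mutant. The groups did not overlap, but the highest mutant library came close to the lowest WT library. The log2 difference was -0.12 (SE 0.0748, 95% interval -0.30 to 0.06, limma adjusted p = 0.396), -0.08 without WT replicate 3 and -0.20 without WT replicates 1 and 2. The mlt-4 transcript (ZC15.7) was at 16.4, 20.1 and 23.1 FPKM in WT and at 17.4, 19.6 and 20.6 FPKM in the mutant. Its groups overlapped fully, the mutant libraries lying inside the WT range. With a log2 difference of -0.04 and a 95% interval of -0.38 to 0.31 (limma adjusted p = 0.915), mlt-4 had the widest interval of the 8 genes, and its difference turned positive without WT replicate 3 (0.07). Without WT replicates 1 and 2 it was -0.26.

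**Figure D1:**
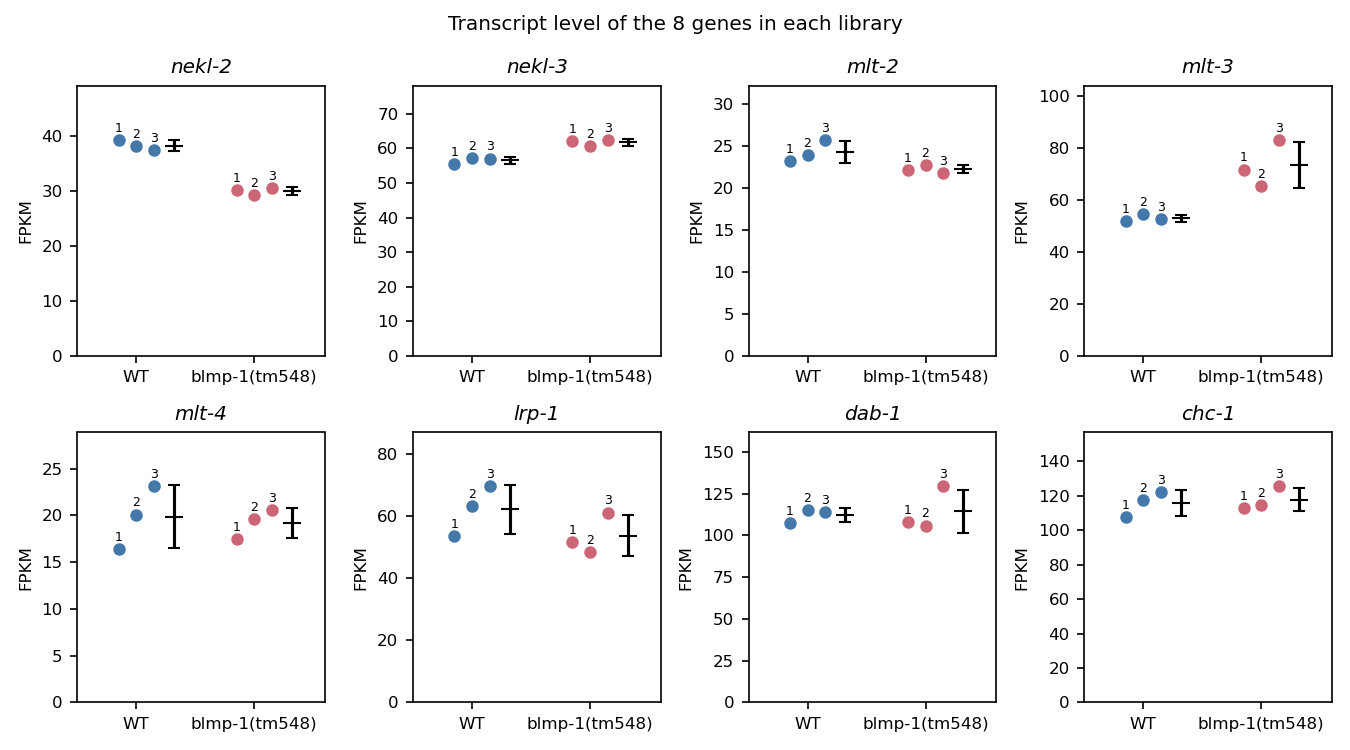
FPKM of the 8 genes (vertical axes, from 0) in each of the 3 WT (blue) and 3 blmp-1(tm548) (red) libraries, numbered by replicate, with group means and SD in black. The groups are apart for nekl-2, nekl-3, mlt-2 and mlt-3 and overlap for mlt-4, lrp-1, dab-1 and chc-1.

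The receptor, adaptor and coat genes did not pass. The lrp-1 transcript (F29D11.1) was at 53.7, 63.3 and 69.5 FPKM in WT and at 51.6, 48.3 and 61.2 FPKM in the mutant. The groups overlapped, since mutant replicate 3 lay above WT replicate 1. The log2 difference was -0.21 (SE 0.124, 95% interval -0.51 to 0.10, limma adjusted p = 0.384). It was not called with any single library left out, where it ran from -0.31 without WT replicate 1 to -0.14 without mutant replicate 2 and -0.12 without WT replicate 3. With WT replicates 1 and 2 both omitted it was -0.37 (limma adjusted p = 0.399). Of 20 alternatives, library weights alone gave a call (-0.28, limma adjusted p = 0.0473). The lrp-1 level was ordered like the summed level of 16 molting and apical matrix genes within WT, where replicate 1 was lowest and replicate 3 highest. These genes summed to 1518, 1708 and 1783 FPKM in WT replicates 1, 2 and 3 and to 1401, 1409 and 1641 FPKM in mutant replicates 1, 2 and 3. Mutant replicate 3 was the highest mutant library for both measures, while mutant replicates 1 and 2 were ordered oppositely. The WT order was not particular to molting genes. In WT replicates 1, 2 and 3, 13 clathrin coat partner genes summed to 957, 1054 and 1072 FPKM. There, 20 endosomal transport genes summed to 1605, 1689 and 1728 FPKM. The intestine markers did not have this order (463, 495 and 491 FPKM). The part of these library differences in the lrp-1 value was not tested.

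The dab-1 transcript (M110.5) was at 107, 115 and 114 FPKM in WT and at 108, 106 and 129 FPKM in the mutant. Mutant replicate 3 stood above the other 5 libraries, as it did for mlt-3. The log2 difference was 0.02 (SE 0.0837, 95% interval -0.18 to 0.23, limma adjusted p = 0.905). The chc-1 transcript (T20G5.1) was at 107.5, 118 and 122 FPKM in WT and at 113, 115 and 125 FPKM in the mutant, with overlapping groups. Its log2 difference was 0.02 (SE 0.0658, 95% interval -0.14 to 0.18, limma adjusted p = 0.869). An annotated overlap of 11 exon bases with ifg-1 on the same strand touches dab-1. For dab-1 and chc-1 the sign turned under median centring and under library weights, so no direction is given. The levels of dab-1 and chc-1 were the highest of the 8 genes, and 5 abundant transcripts (unc-54, unc-15, act-1, eef-1A.1 and rpl-3) averaged 194 to 233 FPKM. Whether differences of highly expressed genes are compressed in these values was not tested.

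Across the set, 1 of 8 genes was called higher and 1 lower, against 3.34% and 3.06% of all 17058 features tested (6.4% in either direction). The groups did not overlap for 4 of 8 genes (2 higher and 2 lower), against 28.7% of all features (13.7% higher and 15% lower). The median log2 difference of the 8 genes was -0.0063, and that of all features tested was 0.0009. By p-value nekl-2 ranked 600 and mlt-3 ranked 925 among all features.

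**Figure D2:**
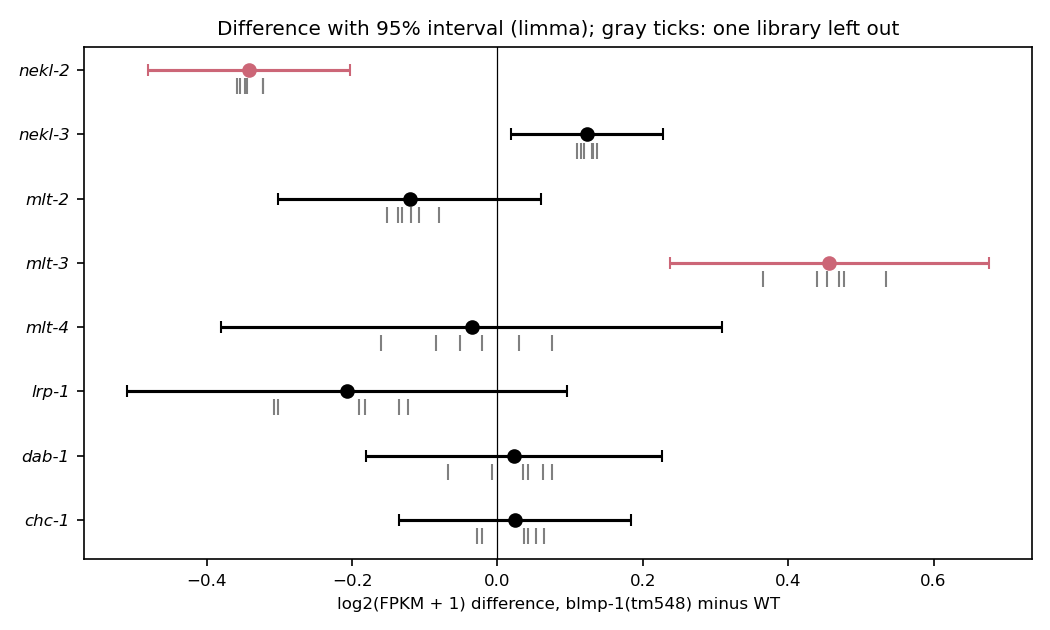
Difference in log2(FPKM + 1) between blmp-1(tm548) and WT (horizontal axis) for each gene, with its limma 95% interval over 3 libraries per group; red marks an adjusted p under 0.05, and gray ticks are the values with each single library left out. The intervals of nekl-2 and mlt-3 lie on opposite sides of 0, from -0.48 to -0.20 and from 0.24 to 0.68.

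Set against each other within a library, the kinase transcripts shifted in relative level. The ratio of nekl-2 to nekl-3 FPKM was 0.709, 0.667 and 0.655 in WT replicates 1, 2 and 3 and 0.487, 0.482 and 0.490 in mutant replicates 1, 2 and 3. The ratio was lower in each mutant library than in any WT library. The ratio of mlt-3 to nekl-3, whose products partner each other, was 0.932, 0.952 and 0.923 in WT and 1.15, 1.08 and 1.33 in the mutant. By FPKM, mlt-3 was thus the lower of this pair in all WT libraries and the higher in all mutant libraries. Which gene of a pair is higher depends on the lengths used for FPKM, and the annotation behind them is not given. For the partners of NEKL-2, the ratio of mlt-2 to nekl-2 went from 0.634 ± 0.0491 in WT to 0.740 ± 0.0334 (SD, n = 3 per group). The ratio of mlt-4 to nekl-2 was 0.417, 0.526 and 0.617 in WT and 0.576, 0.671 and 0.673 in the mutant, and its groups overlapped. Summed by complex, nekl-3 and mlt-3 came to 107 to 112 FPKM in WT and to 126 to 145 FPKM in the mutant. The sum of nekl-2, mlt-2 and mlt-4 was 78.9 to 86.2 FPKM in WT and 69.8 to 73.0 FPKM in the mutant. Each sum holds a called gene, mlt-3 or nekl-2, while nekl-3, mlt-2 and mlt-4 did not pass. The sums are therefore no separate result. These ratios and sums were chosen after the values were seen and carry no test.

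**Figure D3:**
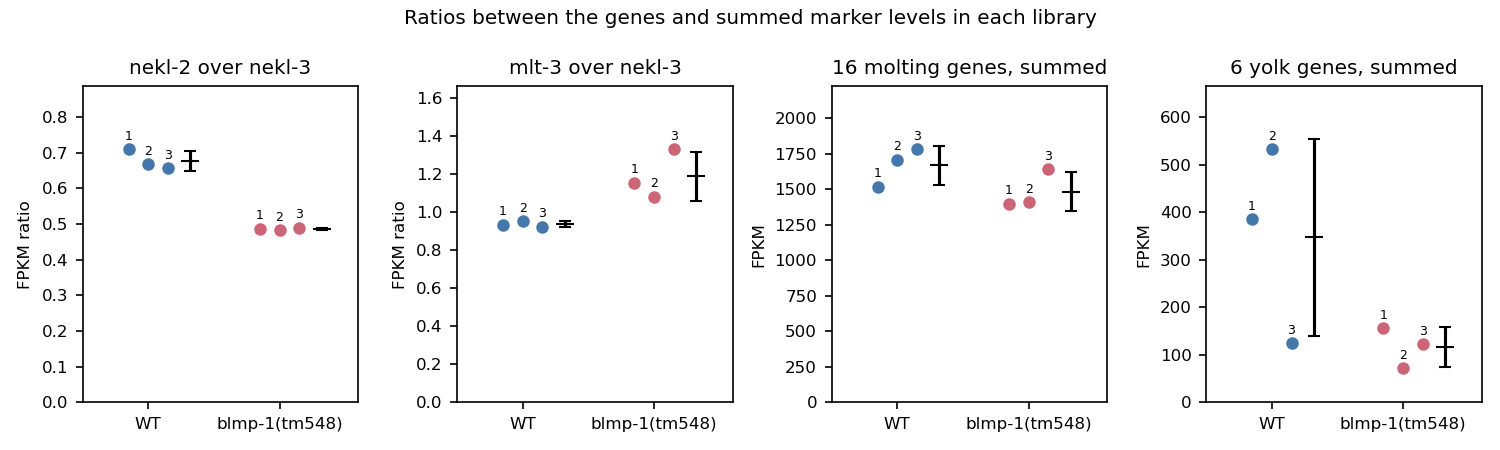
Ratio of nekl-2 to nekl-3 and of mlt-3 to nekl-3 (FPKM over FPKM), and summed FPKM of the 16 molting and apical matrix genes and of the 6 yolk genes, in each WT (blue) and blmp-1(tm548) (red) library, numbered by replicate, with means and SD in black. The ratio of nekl-2 to nekl-3 falls from 0.677 to 0.486 on average, while the yolk sum is high in WT replicates 1 and 2 alone.

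In WT the levels per length ran from chc-1 (116 ± 7.52 FPKM) and dab-1 (112 ± 4.05 FPKM), which overlapped, to lrp-1 (62.2 ± 8.01 FPKM), nekl-3 (56.6 ± 0.980 FPKM) and mlt-3 (52.9 ± 1.39 FPKM), then nekl-2 (38.3 ± 0.955 FPKM), mlt-2 (24.2 ± 1.30 FPKM) and mlt-4 (19.9 ± 3.35 FPKM). The libraries of lrp-1 overlapped those of nekl-3 and mlt-3, whereas those of nekl-3 and mlt-3 did not overlap each other. In the mutant, mlt-3 (73.4 ± 8.94 FPKM) moved above nekl-3 (61.7 ± 1.02 FPKM) and lrp-1 (53.7 ± 6.67 FPKM), and the libraries of the last pair overlapped. Orders between genes with close levels depend on the lengths used for FPKM, which are not given. The remaining kinases of the family, nekl-1 and nekl-4, averaged 2.72 and 4.18 FPKM over the 6 libraries, far below nekl-2 and nekl-3.

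Genes that act with the 8 in endocytosis and molting were grouped into 8 lists of 86 genes, all of which were tested. Limma called 0 of the 86 higher and 4 lower, where 3.34% and 3.06% of all features were called. Of the 86, 13 had an unadjusted p under 0.05, against 23% of all features. With WT replicates 1 and 2 both omitted it called 0 in either direction. Their median log2 difference was -0.01. Of the AP2 clathrin adaptor and its recruiter FCHO-1, linked to the NEKL kinases by genetic suppression, 1 of 5 genes fell. This was aps-2, the small AP2 subunit, at 115, 120 and 122 FPKM in WT and at 102, 104 and 106 FPKM in the mutant. Its libraries did not overlap, and its log2 difference was -0.19 (SE 0.0410, limma adjusted p = 0.0492). The call of aps-2 held without WT replicate 1 (0.0456) and was lost without each other single library, where adjusted p reached 0.182. It was also lost with a pseudocount of 0.1 or 0.5 (0.0531 and 0.0510), with no filter (0.0588) and without a variance trend (0.120), and was made in 6 of 20 alternatives. The other subunit genes, apa-2, apb-1 and dpy-23, and fcho-1 did not pass.

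Of the AP1 and AP3 adaptors, which sort cargo at the trans-Golgi network and endosomes, 1 of 8 genes fell. Of all features, 3.06% were called lower. An unadjusted p under 0.05 was found for 2 of the 8, against 23% of all features. The median log2 difference was -0.07, and that of all features was 0.0009. The gene that fell was apm-3, the medium AP3 subunit, at 53.2, 55.8 and 54.5 FPKM in WT and at 43.2, 44.4 and 44.7 FPKM in the mutant. All its mutant libraries lay below WT, and the difference in log2(FPKM + 1) was -0.30 (SE 0.0475; limma adjusted p = 0.0211). Its adjusted p rose above 0.05 when WT replicate 2 or 3 (0.109 and 0.0608) or mutant replicate 1 or 2 (0.0947 and 0.0803) was omitted.

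Limma called 0 of 13 clathrin coat partners, among them the light chain gene clic-1, the dynamin gene dyn-1 and the epsin gene epn-1, and 0 had an unadjusted p under 0.05. Their log2 differences lay between -0.10 and 0.11. Mean levels reached 138 FPKM in this list (clic-1) and 173 FPKM in the endosomal transport list (rab-11.1). Whether differences at such levels are compressed was not tested. Limma called 0 of 20 endosomal transport genes, such as rab-5, rab-7 and rab-11.1, with 3 at an unadjusted p under 0.05 and differences from -0.10 to 0.20. It called 0 of 16 actin regulators of endocytosis, such as cdc-42 and the ARP2/3 genes, with 2 at an unadjusted p under 0.05 and differences from -0.04 to 0.30. Of 6 LDL receptor-related and sterol transport genes 0 were called and 1 had an unadjusted p under 0.05, with differences from -0.53 to 0.22. For the remaining kinases nekl-1 and nekl-4 both counts were 0. Of all features, 6.4% were called and 23% had an unadjusted p under 0.05.

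Of the 16 molting and apical matrix genes, 2 fell, where 3.06% of all features were called lower. An unadjusted p under 0.05 was found for 4 of the 16, against 23% of all features. The median log2 difference was -0.15. The 2 genes that fell were nas-36, an astacin protease (log2 difference -1.07, limma adjusted p = 0.0147), and bli-5, a Kunitz-type protease inhibitor (log2 difference -0.82, limma adjusted p = 0.0127). Omitting WT replicate 2 (0.0695 and 0.0627) or mutant replicate 1 (0.0605 and 0.0568) ended both calls. These falls exceeded that of nekl-2 in size.

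**Figure D4:**
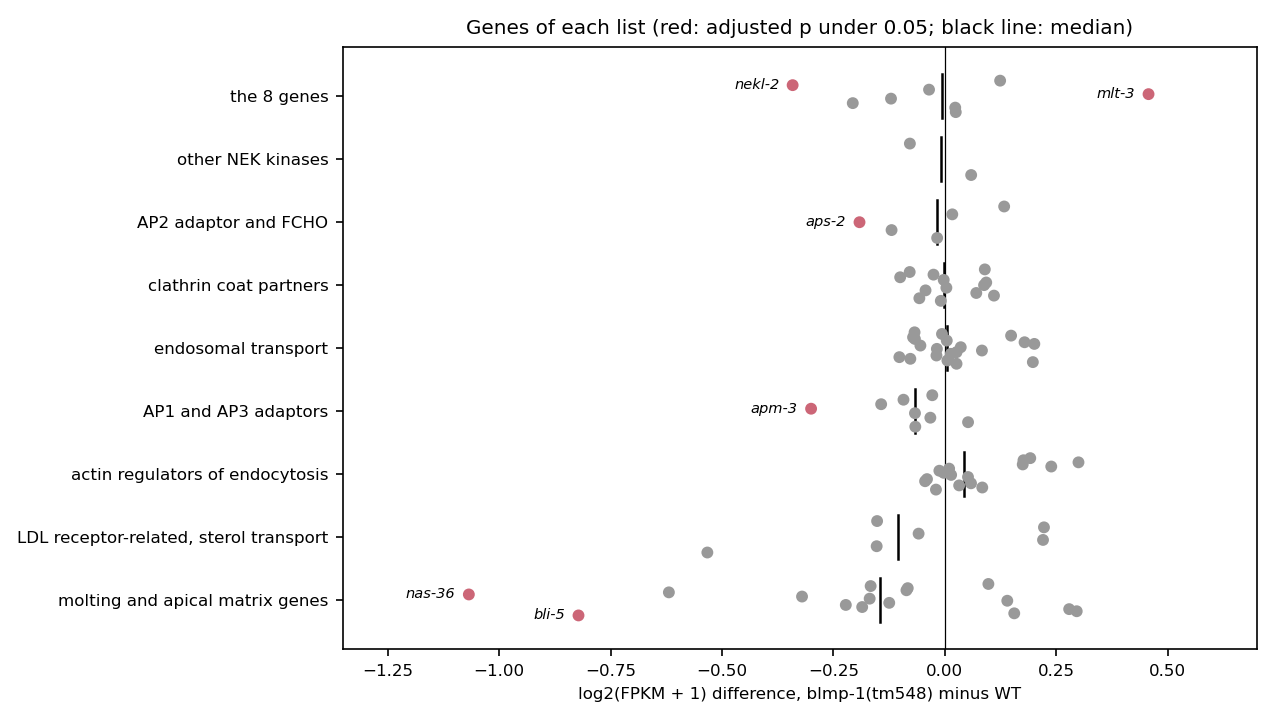
Difference in log2(FPKM + 1) between blmp-1(tm548) and WT (horizontal axis) for the 8 genes and the 86 genes of 8 lists, 1 point per gene; red points have an adjusted p under 0.05 and black lines are list medians. Most points of the endocytic lists lie within 0.2 of 0, and mlt-3 is the red point above 0.

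The genes whose pattern over the 6 libraries was most like that of nekl-2 were ttr-35 and tap-1, with root-mean-square differences of 0.0208 and 0.0269 in centred log2(FPKM + 1) among 11520 protein-coding genes with a mean of at least 10 FPKM. The transthyretin-related gene ttr-35 averaged 109 ± 2.12 FPKM in WT against 87.3 ± 1.85 FPKM, and tap-1 averaged 56.7 ± 2.02 and 46.0 ± 0.689 FPKM (SD, n = 3). Those most like mlt-3 were scav-2, a CD36-type scavenger receptor gene, and F34H10.3, with root-mean-square differences of 0.0451 and 0.0453. The scav-2 transcript did not pass (limma adjusted p = 0.0573), and averaged 43.2 ± 2.82 FPKM in WT against 60.2 ± 7.99 FPKM, and F34H10.3 averaged 48.6 ± 0.715 and 65.2 ± 5.88 FPKM (SD, n = 3). As for mlt-3, mutant replicate 3 was the highest library of both, at 69.0 and 71.9 FPKM. This likeness, and the group differences of all these nearest genes, follow from picking them on the same 6 libraries. They are no separate result.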

How the data were processed

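RNA from 3 WT and 3 blmp-1(tm548) samples was sequenced, and titles gave each sample's group. Gene-level FPKM values were deposited by the authors for every library. Per the submitters' processing notes, the tools included TopHat2 2.0.7, Cuffdiff and Cufflinks 2.0.2. Build, annotation, duplicate removal and strand use are not given in the sources examined, so no coordinates are printed. Symbols and exon lengths came from WBcel235 tables, matched on sequence names (44880 of 45343 features).

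FPKM values are not counts. Values were set to log2(FPKM + 1), and the 17058 features with a mean of at least 1 FPKM entered limma 3.58.1 under R 4.3.3 (group as the single term, trended prior variance, Benjamini-Hochberg adjustment, calls at an adjusted p under 0.05). A fold on this scale understates changes of low genes. Depth was estimated from steps in values below 0.6 FPKM of single-transcript genes of 1000 to 4000 nt (830 to 949 genes per library). It covers counting only, and no interval was built on it.

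The 8 genes and all lists were chosen with earlier results of these data known. Named genes were the 8, blmp-1, called list genes and the 2 nearest profiles of each called gene of the 8. Some uncalled list genes and markers were also named, as examples and not by rank of level. Alternatives were no filter, a 5 FPKM minimum, pseudocounts of 0.1 and 0.5, protein-coding genes of at least 300 nt, median centring, quantile normalization, no variance trend, library weights, the replicate number as a block, and leaving out each library or replicate number. Omitting WT replicates 1 and 2 was added after seeing the data. Promoter and protein features of the genes are not analysed here.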

Additional observations from a re-analysis of the deposited data

How the results depend on the processing

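Over 20 alternative settings, the log2 difference of nekl-2 ranged from -0.37 to -0.31 and was called in 10, and that of mlt-3 ranged from 0.36 to 0.56 and was called in 9. Neither changed sign. For nekl-3, mlt-2, mlt-4, dab-1 and chc-1 no setting gave a call, and lrp-1 was called with library weights. Members called higher numbered 0 under median centring, without a variance trend, with the replicate block and with WT replicates 1 and 2 omitted. Members called lower numbered 0 with the replicate block and with WT replicates 1 and 2 omitted, and 2 with library weights. Leaving out single libraries gave 0 to 1 in each direction, and leaving out a replicate number of both groups gave 0. Of 86 pathway genes, 0 to 2 were called higher and 0 to 4 lower with single libraries left out, 0 higher and 0 to 2 lower with replicate numbers left out, 7 and 10 with library weights, and 0 and 0 with WT replicates 1 and 2 omitted. Over all features, 192 to 620 were called higher and 177 to 712 lower with single libraries left out. Without replicate 1, 2 or 3 of both groups 181, 52 and 335 were called higher and 117, 54 and 316 lower. The counts were 2005 and 2112 with library weights, and 129 and 226 with WT replicates 1 and 2 omitted. Fewer libraries leave fewer degrees of freedom. Without mutant replicate 3 the counts nonetheless rose, from 570 to 620 higher and from 522 to 712 lower. What moved the counts was not tested for any setting.

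Differences that turned sign were all uncalled. That of mlt-4 ran from -0.16 to 0.0745 with single libraries left out, was above 0 without WT replicate 3 or mutant replicate 1, and was 0.0252 without replicate 3 of both groups. That of dab-1 was -0.0053 under median centring, -0.0573 with library weights, -0.0678 to 0.0749 with single libraries left out (below 0 without WT replicate 1 or mutant replicate 3), -0.0563 without replicate 3 of both groups and -1.05e-05 with WT replicates 1 and 2 omitted. That of chc-1 was -0.0041 under median centring, -0.0270 with library weights, -0.0279 to 0.0636 with single libraries left out (below 0 for those same libraries) and -0.0543 with WT replicates 1 and 2 omitted.

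The replicate numbers occur in both groups. Deviations of same-numbered libraries correlated at 0.13, -0.04 and 0.07 for numbers 1, 2 and 3, so the numbers were not taken as pairs. With the replicate block the adjusted p of nekl-2 was 0.0561 and that of mlt-3 was 0.0668 (log2 differences -0.34 and 0.46), that of aps-2 was 0.0599 and that of tap-1 was 0.0569, and 504 features were called higher and 425 lower. Depth limits mlt-4, mlt-2 and nekl-2 most, with about 271 to 445 reads per library at the lower depth estimate.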

Other observations

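Markers of other cell types were looked at as whole lists, beside the epidermis markers given above. Limma called 0 of all 38 marker genes, yolk genes included, where 6.4% of all features were called. An unadjusted p under 0.05 was found for 5, against 23% of all features. These were 4 yolk genes and the pharynx gene pha-4. The 5 intestine markers summed to 463 to 495 FPKM in WT and 472 to 488 FPKM in the mutant. The 4 body wall muscle markers summed to 501 to 560 and 522 to 566 FPKM. They include the abundant unc-54 and unc-15 (196 and 194 FPKM over the 6 libraries), and whether such high values are compressed was not tested. The 3 pharynx markers summed to 192 to 244 FPKM in WT and 242 to 260 FPKM in the mutant, and the 3 germline markers to 259 to 318 and 303 to 334 FPKM. The 4 neuron markers summed to 261 to 269 and 269 to 277 FPKM, and the 5 ciliated neuron markers to 22.98 to 26.4 and 19.3 to 22.7 FPKM. The 2 sperm markers summed to 43.7, 69.8 and 21.5 FPKM in WT replicates 1, 2 and 3. In mutant replicates 1, 2 and 3 they summed to 50.2, 37.3 and 36.4 FPKM. Unlike for yolk and col-19, WT replicate 1 did not stand above the mutant libraries here. No marker of these lists was at 0 in any library.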
